A study of Mus musculus with 36 samples.

Results

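The comparison of G418 with control mRNA half-lives in mouse embryonic stem cells (mESCs) takes in all 10325 mRNAs of the deposited table, each with 1 half-life per condition. Most weight was placed on the 3247 mRNAs (31.4%) with at least 1000 average reads, which held 77.9% of the reads on listed mRNAs. The cells were E14Tg2a, a single mESC line of strain 129/Ola grown in 2i medium, which keeps the cells pluripotent. All arms received 100 µM 4-thiouracil for 24 h, with fresh medium every 8 h, and were then chased with 10 mM uridine. The control arm had no antibiotic, the G418 arm had 0.1 µg/mL G418 during the chase, and a further arm had 0.1 µg/mL puromycin. Each arm was harvested at 0, 1, 2, 4, 8 and 24 h with 2 replicates per time point, or 12 libraries per arm. Since replicates and time points were combined into 1 half-life, replicate error is known for none of the values below, and the comparison of conditions cannot be checked between replicates. The intervals given here are 95% intervals over mRNAs. They say how well a median or share is fixed by the number of mRNAs, not how it would vary between cultures. They also treat the listed transcripts as independent. Transcripts of the same gene could not be identified, and where such transcripts share reads the intervals would be too narrow. UCSC transcript identifiers could not be paired with gene symbols, so neither gene functions nor the stem cell markers of the line were examined.

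In SLAM-Seq, 4-thiouracil enters newly made RNA, and alkylation of the thiol group causes U to C conversions in the sequencing reads. During the chase the labeled fraction of each mRNA declines as labeled molecules decay and unlabeled ones replace them. G418 (geneticin) binds the decoding center of the ribosome, as other aminoglycosides do, so that near-cognate tRNAs are accepted more often and translation errors become more frequent. Puromycin enters the ribosome like an aminoacyl-tRNA and releases the unfinished peptide.

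Among the 3247 mRNAs with at least 1000 reads, half-lives were modestly shorter in G418-treated mESCs than in control mESCs. Median half-lives were 189 min for control, 179 min for G418 and 197 min for puromycin. Within each mRNA, the median log2 ratio of the G418 over the control half-life was -0.11 (interval -0.13 to -0.09), a median change of -7.37%. The half-life was shorter with G418 for 1925 mRNAs (59.3%, exact binomial interval 57.6% to 61.0%) and longer for 1322 mRNAs. The ratios of single mRNAs spread far more widely than this shift, with quartiles of -0.44 and 0.20 and an SD of 0.61. In the 7078 mRNAs with fewer than 1000 reads, the median log2 ratio was -0.08 and the SD was 0.99.

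The long end of the distribution differed most between control and G418. Percentiles and counts were taken in each condition separately, so they are not changes within mRNAs. They also hold the error of the half-lives in each condition. The 5th percentile was 87.7 min in control and 87.6 min with G418, and the 25th was 141 min and 137 min. The 75th percentile was 268 min in control and 239 min with G418. At the 95th percentile the values were 542 min and 422 min, a difference of -22.2%. Put as counts, 1029 of the 3247 mRNAs had a control half-life above 4 h, against 803 with G418. Above 8 h there were 210 half-lives in control, 111 with G418 and 239 with puromycin. The short end was nearly the same, with 496 half-lives below 2 h in control and 541 with G418. Only 14 control half-lives and 5 G418 half-lives in these mRNAs lay beyond the 24 h chase.

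**Figure D1:**
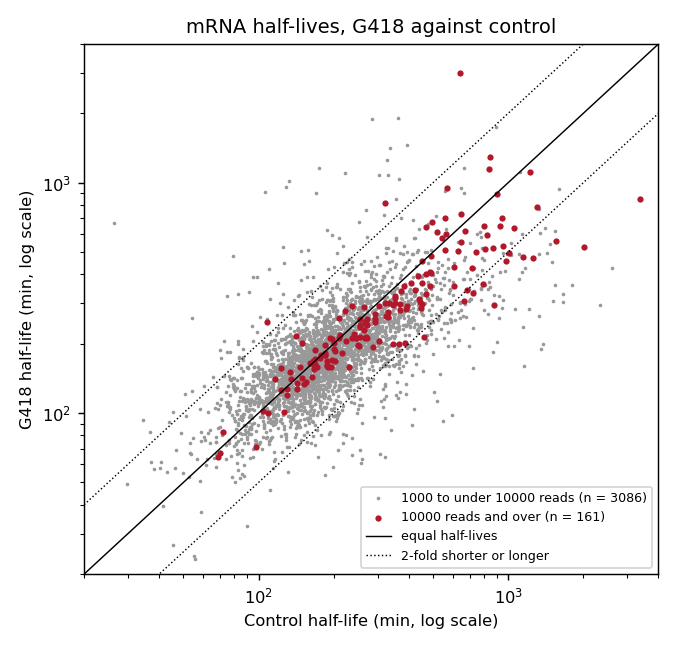
Half-life of each mRNA with 1000 or more average reads (n = 3247) in control (x axis, min, log scale) and G418-treated (y axis, min, log scale) mESCs. Grey points are mRNAs with 1000 to under 10000 reads (n = 3086) and red points those with 10000 or more (n = 161), the solid line marks equal half-lives and the dotted lines a 2-fold difference. At least 2-fold shorter half-lives with G418 were listed for 205 mRNAs and at least 2-fold longer ones for 87.

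To ask how the change depended on the stability of the mRNA, mRNAs were ranked by their half-life in puromycin-treated mESCs. The puromycin half-life comes from other libraries and is not part of the ratio, so an error in a control or G418 half-life cannot move an mRNA along this ranking. When the 3247 mRNAs were divided into deciles, the shift was close to 0 among short-lived mRNAs and was found mainly among long-lived mRNAs. In decile 1, with puromycin half-lives from 27.0 to 110 min, control half-lives had a median of 107 min and G418 half-lives one of 105 min, and the median log2 ratio was -0.02 (interval -0.08 to 0.06, n = 325). Deciles 2 and 3 had medians of -0.02 and -0.01, with intervals that also held 0.

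Across the middle of the range the shift was small. Median log2 ratios were -0.10, -0.08 and -0.06 in deciles 4, 5 and 6, where control half-lives had medians from 170 to 191 min, and these neighbors did not differ beyond their intervals. The median was -0.15 in decile 7 and -0.21 in decile 8. Decile 9 had medians of 306 min in control and 252 min with G418, with a median log2 ratio of -0.25 (interval -0.33 to -0.18). Decile 10, with puromycin half-lives of 429 min or more, had a median of 423 min in control and 340 min with G418, and a median log2 ratio of -0.30 (interval -0.38 to -0.20, n = 324), or -18.6%. Deciles 8, 9 and 10 overlapped one another in their intervals, and none of the 3 overlapped deciles 1 to 3. G418 gave the shorter half-life for 51.4% of mRNAs in decile 1, 69.2% in decile 9 and 66.4% in decile 10. From decile 1 to decile 10 the median log2 ratio thus differed by -0.27.

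**Figure D2:**
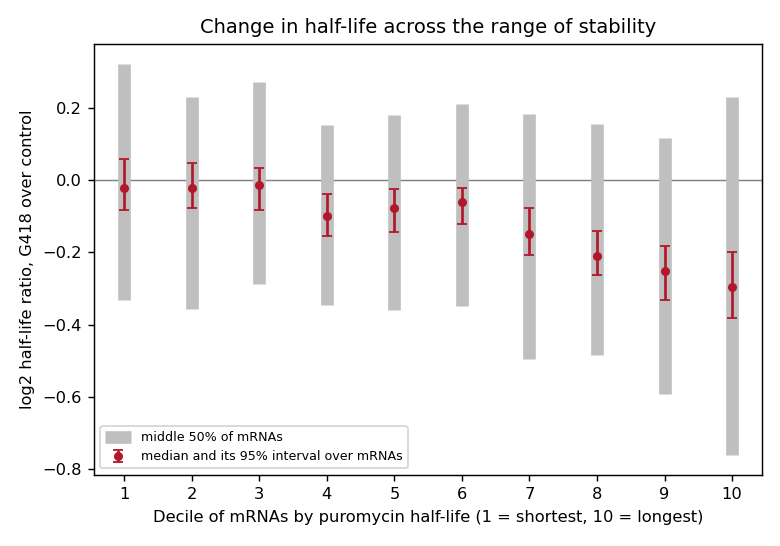
Log2 ratio of the G418 over the control half-life (y axis) for the 3247 deep mRNAs, in deciles by puromycin half-life (x axis, 1 = shortest). Points are medians with their 95% intervals over mRNAs and grey bars span the middle 50% of mRNAs. The medians go from -0.02 in decile 1 to -0.30 in decile 10, within grey bars that are much wider than this difference.

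Expressed as decay rate constants, the median increments varied between deciles, but no intervals were computed for them. The median increase of the rate constant with G418 was 0.0051 per h in decile 1, where the median control rate was 0.388 per h. It was 0.025 per h in decile 8 and 0.021 per h in decile 10, where the median control rates were 0.162 and 0.0983 per h. In deciles 4, 5 and 6 it was 0.017, 0.011 and 0.0091 per h. The medians in deciles 8 and 10 were thus above that in decile 1. Whether increments in absolute terms differed between short-lived and long-lived mRNAs beyond their spread was not tested.

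The outcome of the ranking rests on which half-life is used for it. Ranked by the control half-life, which is the denominator of the ratio, the medians went from 0.31 in decile 1 to -0.76 in decile 10. Ranked by the G418 half-life, the numerator, they went from -0.35 to 0.14, in the opposite direction. Among the 404 mRNAs with at least 5000 reads, the slope of the log2 ratio was -0.12 on puromycin, -0.29 on control and -0.04 (interval -0.10 to 0.02) on G418 half-lives, so the opposite direction was not found at that depth. An mRNA whose control half-life was estimated too long is placed among the stable mRNAs and has a low ratio, so neither of these rankings separates error from a dependence on stability. Medians by the puromycin ranking lay between them at both ends. Error in the puromycin half-life itself still mixes mRNAs between its deciles. The puromycin ranking also holds any response of an mRNA to puromycin. By this ranking, median log2 ratios of puromycin over control were -0.33 in decile 1 and 0.58 in decile 10. The ranking half-life enters that ratio, so stability, response to puromycin and error cannot be told apart there.

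**Figure D3:**
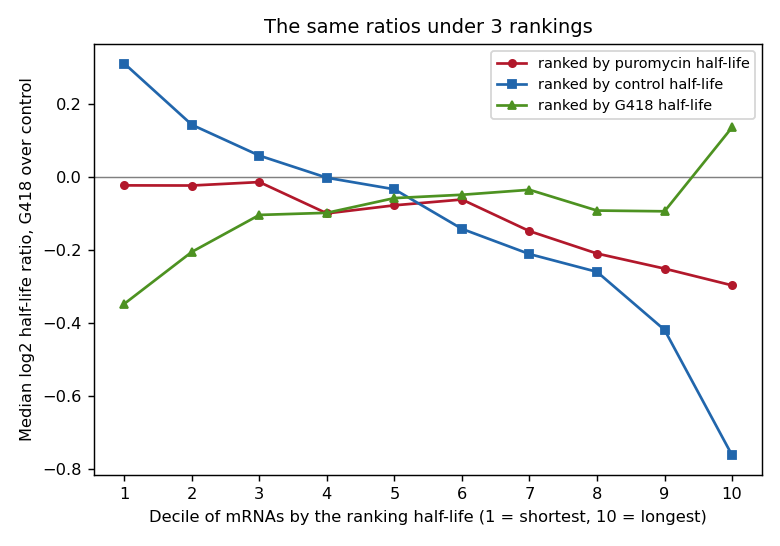
Median log2 ratio of the G418 over the control half-life (y axis) in deciles (x axis, 1 = shortest) when the 3247 mRNAs are ranked by puromycin (red circles), control (blue squares) or G418 (green triangles) half-life. The control ranking slopes down by 1.07 and the G418 ranking up by 0.48, and the puromycin ranking lies between them in deciles 1 and 10.

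A measure that does not weaken with error in the ranking is the covariance of log2 half-lives with those in puromycin, taken for G418 and divided by that for control. It compares how far half-lives are spread out in both conditions along the stability that they share with the puromycin arm, provided that errors in the 3 arms are unrelated. The ratio was 0.87 (interval 0.83 to 0.91) among the 3247 mRNAs, so that the shared range of log2 half-lives was narrower with G418 than in control. It was 0.84 (interval 0.77 to 0.91) in the 404 mRNAs with at least 5000 reads, and 0.99 (interval 0.88 to 1.11) in those under 1000 reads. The intervals were wide in smaller sets, with 0.91 (interval 0.78 to 1.04) from 1500 to under 2000 reads, 0.89 (interval 0.78 to 1.00) at 10000 reads or more and 0.92 (interval 0.74 to 1.1) at 20000 or more. The least squares slope of the log2 ratio on the log2 puromycin half-life was -0.09 (interval -0.12 to -0.07), against -0.06 (interval -0.13 to 0.01) from 1500 to under 2000 reads and -0.05 (interval -0.17 to 0.06) at 20000 reads or more. With the roles of the antibiotics exchanged, the covariance ratio of puromycin to control, taken with G418, was 1.05 (interval 0.99 to 1.1), and the median log2 ratios of puromycin over control went from -0.0019 in decile 1 by G418 half-life to 0.08 in decile 10. With at least 5000 reads the covariance ratio of puromycin to control was 1.11 (interval 1.02 to 1.2). The slope of the log2 ratio of puromycin over control on the log2 G418 half-life was 0.04 (interval 0.0066 to 0.07) among the 3247 mRNAs and 0.11 (interval 0.05 to 0.18) among the 404. These values share the control libraries with those for G418.

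Read number and stability were themselves related. The median of average reads was 1615 in decile 1 by puromycin half-life and 2477 in decile 10, and the Pearson correlation of log2 reads with log2 puromycin half-lives was 0.27 across the 3247 mRNAs, as a description of mRNAs that share libraries. The dependence on stability was therefore examined within bins of read number, using tertiles of puromycin half-life set over all 3247 mRNAs (up to 165 min, up to 242 min, and above). In all 6 bins the median log2 ratio was lower in the longest tertile than in the shortest. In the bin from 1000 to under 1500 reads the medians were -0.02 in the shortest tertile (n = 477) and -0.18 in the longest (n = 321). From 5000 to under 10000 reads they were -0.06 (n = 52) and -0.33 (n = 122), and at 10000 reads or more they were -0.05 (n = 20) and -0.24 (n = 100). The intervals of these tertiles lay apart in 4 of the bins and overlapped in 2, those from 1000 to under 1500 and from 2000 to under 3000 reads. The interval of the shortest tertile held 0 in 6 of 6 bins, and that of the longest tertile was below 0 in 6 of 6.

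**Figure D4:**
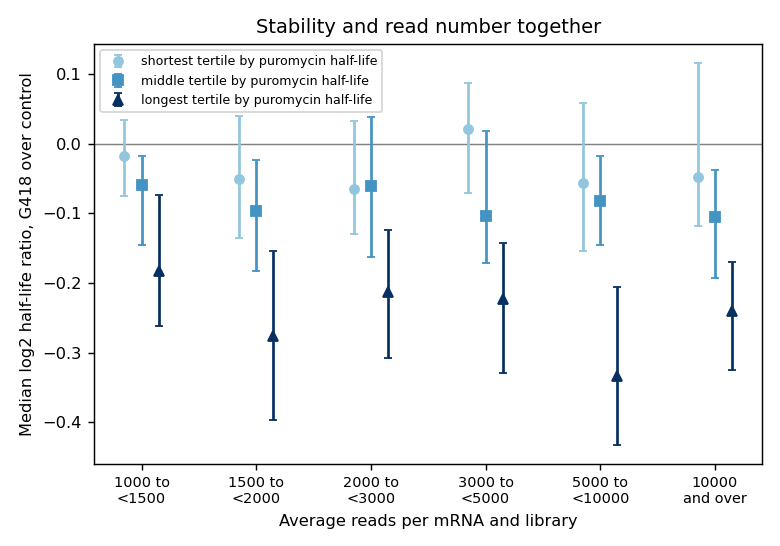
Median log2 ratio of the G418 over the control half-life (y axis) by average reads per mRNA and library (x axis, 6 bins) and tertile of puromycin half-life (light circles shortest, squares middle, dark triangles longest), with 95% intervals over mRNAs. Dark triangles lie between -0.18 and -0.33, below the light circles in all 6 bins.

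As a whole, the mRNAs below 1000 reads did not show this dependence. Among the 7078 mRNAs with fewer reads, ranked in the same way, the median log2 ratio was -0.05 in decile 1 (interval -0.14 to 0.04) and -0.07 in decile 10 (interval -0.14 to 0.04). The SD of the ratio was 1.08 in that decile 1 and 1.07 in that decile 10. The limit of 1000 reads marked no step in the ratios. The 336 mRNAs with 1000 to under 1100 reads had a median of -0.03 and an SD of 0.74, and the 384 mRNAs with 900 to under 1000 reads had a median of -0.08 and an SD of 0.68. The dependence on stability did not stop at the limit either, since the slope of the log2 ratio on the log2 puromycin half-life was -0.14 (interval -0.23 to -0.06) just below it and -0.09 (interval -0.19 to 0.01) just above it.

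Within the deep mRNAs, the middle of the ratios drew together as reads increased, but the lower tail did not. The middle 50% of log2 ratios ran from -0.47 to 0.32 in the 1207 mRNAs with 1000 to under 1500 reads, from -0.39 to 0.15 in the 421 with 3000 to under 5000 reads, and from -0.39 to -0.02 in the 161 with 10000 or more. The 5th percentile was -1.08 in the bin with the fewest reads and -1.12 in the last bin, and the 95th was 0.92 and 0.45. The SD was 0.68, 0.64, 0.55, 0.52, 0.45 and 0.51 over the 6 bins in order of reads. It was 0.58 in the 65 mRNAs with at least 20000 reads. An SD scaled from the median absolute deviation, which is less affected by a few extreme mRNAs, went from 0.58 in the first bin to 0.25 in the last. The gap between both measures was widest in the last bin, where a few mRNAs stood far from the rest. One of them, uc007lfk.2 (23826 reads), was picked here after its values were seen. It was listed with 642 min for control, 2982 min for G418 and 1578 min for puromycin, so both antibiotic values exceed the 24 h chase.

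The median log2 ratio was -0.06, -0.12, -0.11, -0.10, -0.15 and -0.16 over the same 6 bins. Intervals of neighboring bins overlapped throughout. The share with the shorter half-life in G418 was 55.4% in the bin with the fewest reads, 69.5% in the bin from 5000 to under 10000 reads and 77.0% at 10000 reads or more (124 of 161, exact binomial interval 69.7% to 83.3%). Because the deepest mRNAs were also long-lived, with a median control half-life of 293 min against 176 min in the first bin, read number and stability are not separated in these shares.

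**Figure D5:**
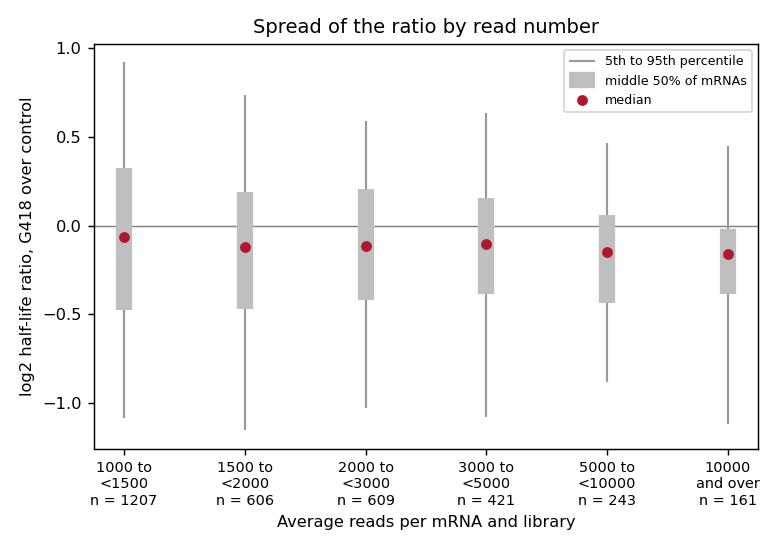
Log2 ratio of the G418 over the control half-life (y axis) by average reads per mRNA and library (x axis, 6 bins with their n). Points are medians, grey bars the middle 50% and lines the 5th to 95th percentile of mRNAs, and the bars narrow towards the bin with 10000 or more reads, where the upper quartile is -0.02.

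Half-lives in the 3 arms share a common stability, and the part of each that is not shared shows how far a single value can be read. From the covariances between arms, the SD of the unshared part of the log2 half-life was 0.45 in control, 0.40 with G418 and 0.43 with puromycin among the 3247 mRNAs. It holds both measurement error and any true response of single mRNAs, which cannot be told apart without replicate values. For G418 it was 0.47 in the bin with the fewest reads, 0.25 from 5000 to under 10000 reads, 0.30 at 10000 reads or more and 0.43 in the 65 mRNAs with at least 20000. The overall SD of log2 half-lives was 0.81 in control and 0.70 with G418. The Pearson correlation of log2 half-lives between G418 and control was 0.68 over the 3247 mRNAs, and it was 0.54 in the bin with the fewest reads and 0.87 at 10000 reads or more.

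Large differences went in both directions. Over all 10325 mRNAs, 12% had a half-life at least 2-fold shorter with G418 and 8.70% one at least 2-fold longer. Among the 3247 deep mRNAs these shares were 6.31% (205 mRNAs) and 2.68% (87 mRNAs). With the ratios centred on their median, which removes the common shift, 160 mRNAs were at least 2-fold shorter and 115 at least 2-fold longer. By decile of puromycin half-life, at least 2-fold shorter half-lives made up 5.23% of decile 1, 1.85% of decile 3, 10.5% of decile 9 and 17.9% of decile 10 (58 of 324). At least 2-fold longer half-lives made up 3.69% of decile 1, 4.00% of decile 2, 0.923% of decile 3, 2.15% of decile 9 and 7.72% of decile 10, where the SD of the ratio was 0.91 against 0.47 in decile 6.

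In such mRNAs the puromycin half-life was set beside the compared values. Over all 3247 deep mRNAs it was nearer, on the log2 scale, to the control value for 1670 and nearer to the G418 value for 1577 (48.6%). The sets below were selected on the ratio, so their counts are descriptions. For the 205 mRNAs at least 2-fold shorter with G418, the puromycin half-life was nearer to the control value for 95 mRNAs and nearer to the G418 value for 110. Medians of these mRNAs were 471 min for control, 184 min for G418 and 282 min for puromycin. For the 87 mRNAs at least 2-fold longer, it was nearer to control for 38 and nearer to G418 for 49. Of the 28 mRNAs at least 4-fold shorter with G418, 22 had a puromycin half-life nearer to the G418 value. Of the 16 mRNAs at least 4-fold longer, 12 had one nearer to control, 10 of them among the 12 mRNAs with fewer than 2000 reads and 2 among the 4 with more. Among the 2-fold shorter mRNAs, the puromycin value was nearer to control for 29 of 79 with at least 2000 reads and for 12 of 23 with at least 5000 reads. With a limit of 1.5-fold it was nearer to control for 303 of 552 over all deep mRNAs and for 38 of 60 with at least 5000 reads, and among the 285 deep mRNAs at least 1.5-fold longer it was nearer to control for 105 and nearer to G418 for 180.

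Single mRNAs were taken by fixed rules from the 3135 deep mRNAs with half-lives from 1 to 24 h in the 3 arms. The 8 with the most reads (62573 to 171624 on average) had shorter half-lives with G418 than in control in 8 of 8 cases. Their log2 ratios ran from -1.56 to -0.20. The share shorter was 59.4% of all 3135. It was 76.9% (50 of 65) at 20000 reads or more without the limits of 1 to 24 h. Puromycin half-lives beyond 24 h kept out 3 mRNAs of similar depth, which were looked up after the values of the 8 were seen. They were uc009qun.2, which had the most reads of all (289411) and half-lives of 903 min (control), 892 min (G418) and 2045 min (puromycin), uc009nue.3 (69609 reads) with 1306 min (control), 784 min (G418) and 1946 min (puromycin), and uc007wmt.2 (62454 reads) with 557 min (control), 705 min (G418) and 3057 min (puromycin). The deepest of the 8, uc009vey.1, had half-lives of 216 min (control), 183 min (G418) and 224 min (puromycin), a log2 ratio of -0.24. The next, uc008cqz.1, had 294 min (control), 256 min (G418) and 291 min (puromycin), a log2 ratio of -0.20. In both, control and puromycin lay within 10 min of each other and G418 was lowest.

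The widest differences among the 8 belonged to 2 long-lived mRNAs. uc009sgd.1 had half-lives of 874 min (control), 296 min (G418) and 977 min (puromycin), 2.96-fold shorter with G418 than in control. uc009dts.2 had 1012 min (control), 494 min (G418) and 1249 min (puromycin), 2.05-fold shorter. Log2 ratios of puromycin over control were 0.16 for uc009sgd.1 and 0.30 for uc009dts.2. Those of G418 over control were -1.56 and -1.03, so in both the G418 value was further from control. The other 4, uc007gge.2, uc007bvp.1, uc033iut.1 and uc009vez.1, had log2 ratios from -0.32 to -0.20. Their log2 ratios of puromycin over control were 0.21, 0.25, 0.65 and 0.32, in that order. For uc033iut.1 and uc009vez.1, puromycin thus differed from control by more than G418 did. In all 8 the puromycin half-life was nearer to control than to G418. That holds for any mRNA whose control value lies between the other values.

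Within the limits of 1 to 24 h, the 5 lowest ratios belonged to mRNAs with 1096 to 1981 reads. These were selected on the ratio and are given only as a description. uc008vmk.2 had half-lives of 1155 min (control), 160 min (G418) and 606 min (puromycin). uc008njq.1 had 1349 min (control), 191 min (G418) and 230 min (puromycin), and uc009oni.2 had 1376 min (control), 199 min (G418) and 223 min (puromycin). In 4 of these 5, including uc033img.1 and uc009cyd.3, the puromycin value was nearer to G418 than to control. The 5 highest ratios within the same limits belonged to mRNAs with 1024 to 3155 reads. uc007unf.2, the highest, had 106 min (control), 907 min (G418) and 116 min (puromycin), and uc011ycd.1 had 132 min (control), 1013 min (G418) and 139 min (puromycin). For uc008kbc.2, uc057atr.2 and uc007wuo.1 as well, the puromycin value was nearer to control.

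The 3 mRNAs with the longest half-lives with puromycin were taken within the limits of 1 to 24 h. Of these, uc007ggf.1 had 392 min in control and 294 min with G418, uc008pxo.2 had 379 min and 331 min, and uc008got.2 had 649 min and 734 min. The first 2 were thus shorter with G418 and the last longer. Of the 3 shortest within the same limits, uc007prt.4 had 160 min in control and 178 min with G418. For uc008bxm.2 the values were 81.8 min and 69.5 min, and for uc007dwq.2 they were 261 min and 90.6 min.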

How the data were processed

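RNA from 36 SLAM-Seq libraries was sequenced. Per the paper's methods, Bowtie2 placed the read pairs on mm10 mouse transcripts, converted reads (U to C) were counted as a fraction per chase time, and half-lives were obtained from exponential fits. The submitters' processing notes name both mm10 and GRCm39; no coordinates are used here. The deposited values are 1 half-life in minutes per mRNA and condition and an average read number, read as a mean over the 36 libraries because its product with 36 was whole, within 0.01, for 100% of mRNAs. The averages sum to 14634046 reads per library; depth of single libraries is unknown. How replicates were combined and any filter are not given in the sources used here.

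Log2 ratios of half-lives were taken within each mRNA, unscaled. Medians have exact order-statistic intervals, shares exact binomial intervals, slopes least squares intervals and the covariance ratio a residual-based interval. No p-value was computed, since mRNAs are not replicates. Identifiers were named by rule among mRNAs with at least 1000 reads and half-lives of 1 to 24 h in the 3 arms: the 8 with the most reads, the 5 lowest and 5 highest ratios, and the 3 longest and 3 shortest in puromycin. A further 7 outside these limits (uc007lfk.2, uc009qun.2, uc009nue.3, uc007wmt.2, uc008bpi.1, uc008xnp.2 and uc007svc.3) were named after their values were seen. The comparison, read limit, bins and ranking were chosen with earlier results of these data known. Functions were tested on simulated data. Tables were computed in python 3.11.15 with pandas 2.3.3 and numpy 2.4.6, intervals with scipy 1.17.1, and figures with matplotlib 3.10.9.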

Additional observations from a re-analysis of the deposited data

How the results depend on the processing

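Of 48 alternatives, 8 of them chosen after seeing the data, 27 stayed within the interval of the result (for counts, within 1.5-fold), 19 moved it and 2 reversed it. The median log2 ratio was below 0 under all of its alternatives, from -0.13 with a minimum of 2000 reads to -0.09 with a minimum of 500, and at 10000 reads or more it ranged from -0.22 as a mean to -0.15. The share shorter in G418 was 55.7% in all rows, 56.9% from 500 and 62.3% from 2000 reads. At least 1.5-fold shorter or longer were 552 and 285 mRNAs, and at least 3-fold 51 and 30. The SD was 0.89 in all rows, 0.70 from 500 and 0.52 from 2000 reads, 0.57 with half-lives of 1 to 24 h, 0.54 without ratios beyond 4-fold and 0.48 from the median absolute deviation. Between deciles 10 and 1 the median ratio differed by -0.075 in all rows, by -1.07 ranked by control and by 0.48 ranked by G418. The slope was -0.029 in all rows, -0.41 on control and 0.22 on G418 half-lives. The covariance ratio was 0.92 in all rows. Fold limits move counts by construction, and the control and G418 half-lives enter the ratio; otherwise the cause was not tested. Ranked within each read bin, the deciles differed by -0.30, and with log2 reads as a second term the slope was -0.08. No paired analysis was possible because replicates are combined into 1 half-life per condition, and leaving out a replicate was not run for the same reason. The depth of single libraries is unknown, so the precision of a single ratio is unknown.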

Other observations

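Outside the limits of 1 to 24 h, all 3 mRNAs with at least 10000 reads and a control half-life beyond the 24 h chase had a shorter one in G418. They were picked after their values were seen and on the control half-life, the denominator of the ratio. uc008bpi.1 (10092 reads) had half-lives of 3379 min (control), 849 min (G418) and 1734 min (puromycin). uc008xnp.2 (22258 reads) had 2013 min (control), 528 min (G418) and 1840 min (puromycin). uc007svc.3 (15227 reads) had 1561 min (control), 561 min (G418) and 818 min (puromycin). Of the 161 mRNAs with 10000 reads or more, 13 (8.07%) were at least 2-fold shorter with G418 and 3 (1.86%) at least 2-fold longer. Among all 3247 deep mRNAs the shares were 6.31% and 2.68%.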
